A study of Mus musculus with 18 samples.

Results

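The genes described here are 43 genes of the G1/S transition and of DNA replication, measured on Affymetrix Mouse430_2 arrays in microglia, the immune cells that live in the brain, sorted from mouse embryos. A gene's value is the deposited log2 expression of its probe set, the group of short probes that reads its transcript. Of the 43 listed genes, 42 had a probe set that carries 1 gene symbol, among 18194 genes named in this way, and Chaf1a had none. Each gene was read from its brightest probe set, by the mean of 18 arrays. All 42 passed the filter on dim probe sets, which kept 11630 genes.

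The cells were Cx3cr1-GFP positive cells sorted by flow cytometry from pooled embryonic hippocampi of the C57BL/6 background at embryonic day E17.5, and per the design text they were pooled by pregnant dam, so no array is known to hold a single embryo. The LPS group (4 arrays) came from wild type embryos whose mothers had been inflamed with LPS (lipopolysaccharide, a bacterial cell wall component), and the PBS group (4 arrays) from the wild type controls of that treatment. The DAP12KO group (4 arrays) came from untreated DAP12-/- embryos, and the UT group (6 arrays) from untreated wild type (DAP12+/+) embryos. DAP12, encoded by Tyrobp, is an adaptor that carries signals from several microglial surface receptors. The GFP reporter is shared by all 4 groups; the sources used here do not give its allele, the LPS dose or the time from injection. The sample names carry a year, called the label year here, and what it marks is not stated. The sets year-2008 and year-2013 hold 1 LPS and 1 PBS array each, and year-2010 holds 2 of each. Where 4 LPS or 4 PBS values are given in a row, they stand in the order year-2008, year-2010 (both arrays) and year-2013, and DAP12KO values in the order of the label's replicate numbers 1, 2, 4 and 5. All 4 DAP12KO arrays are of year-2013, with 4 UT arrays, and the other 2 UT arrays are of year-2012. Unless a year is named, UT ranges and medians cover all 6 UT arrays. The fitted DAP12KO minus UT difference beside them rests on the 4 UT arrays of year-2013. The labels do not say that arrays of a group came from separate litters, so each p-value measures the spread between these arrays, which may in part be technical.

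Before a cell copies its genome, it licenses its origins: the origin recognition complex, with Cdc6 and Cdt1, loads the Mcm2 to Mcm7 ring onto DNA in G1. Cyclin D with Cdk4, then cyclin E with Cdk2, release E2F transcription factors from the retinoblastoma protein, and E2F raises transcription of many genes described here. In S phase Cdc45 and the GINS complex turn the loaded ring into the active helicase, polymerases extend primers on both strands, the Pcna clamp holds them to DNA, and ribonucleotide reductase and thymidylate synthesis supply the building blocks. Microglia divide in the embryonic brain as they spread through it.

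What the members share in sequence was read from RefSeq promoter windows of GRCm38.p6, which run from 250 bases before to 50 bases after each start site. A window was found for 36 of the 43 genes. The letters of the E2F element (TTTCCCGC, TTTCGCGC, TTTGCCGC or TTTGGCGC, on either strand) were present in 14 of those 36 windows (38.9%), against 704 of 27025 gene windows (2.60%) and 461 of the 9465 windows of genes kept by the filter (4.87%). The CCAAT box letters, on either strand, were present in 21 of 36 (58.3%), against 41.1% of all windows and 43.0% of those of kept genes. The cell cycle homology element of mitotic genes (TTTGAA, on either strand) was present in 3 of 36 (8.33%). It was present in 20.2% of all windows and in 14.3% of the windows of genes kept by the filter. Of the windows of the G2 and mitosis genes described further on, 20 of 26 (76.9%) held it. Windows of genes differ in base composition, and its part in these shares was not tested. A match is a run of letters and no measured binding site. The 5 stretches shown belong to genes whose values are set out below; capitals mark the E2F letters, overlapping matches run together, and each is written 5′ to 3′ on the gene's own strand.

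Mcm5: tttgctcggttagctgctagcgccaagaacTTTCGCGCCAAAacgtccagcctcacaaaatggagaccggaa
Mcm6: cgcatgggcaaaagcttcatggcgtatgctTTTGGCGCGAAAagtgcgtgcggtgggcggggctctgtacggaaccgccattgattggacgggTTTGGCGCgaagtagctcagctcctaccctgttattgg
Mcm7: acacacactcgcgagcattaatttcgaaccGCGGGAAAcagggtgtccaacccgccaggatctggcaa
Orc1: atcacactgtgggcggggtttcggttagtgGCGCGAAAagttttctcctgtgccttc
Cdk2: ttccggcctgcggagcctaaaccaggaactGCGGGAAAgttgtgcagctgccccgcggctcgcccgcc

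These stretches lie at chr8:75109326-75109397 (plus strand) for Mcm5, chr1:128359715-128359845 (minus strand) for Mcm6, chr5:138172011-138172078 (minus strand) for Mcm7, chr4:108579397-108579453 (plus strand) for Orc1 and chr10:128705154-128705221 (minus strand) for Cdk2, all in GRCm38.p6. Mcm5 held 2 matches, which overlap. Mcm6 held 3, of which those beginning 110 and 106 bases before the start site overlap and the last, 47 bases before it, stands apart. The Orc1 match began 27 bases before the start site and the Mcm7 match shown 165 bases before it; a second Mcm7 match, 17 bases after the start, lies outside the stretch.

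The arrays differed in their levels of markers of other cell types. Of 19 microglia markers fixed for the check, 18 had a probe set, all 18 were kept, and their mean ran from 12.27 to 13.43 (log2) on 16 arrays. The 2 PBS arrays of year-2010 stood apart: there the microglia mean was 10.93 and 11.25, the mean of 18 neuron markers was 10.42 and 10.49 (5.73 to 8.89 elsewhere) and that of 14 neural progenitor and radial glia markers was 11.20 and 11.06 (6.80 to 9.35 elsewhere). Of the oligodendrocyte markers Olig1 and Pdgfra were kept, with a mean of 7.26 and 5.58 on those arrays and at most 2.86 elsewhere; Olig2, Cspg4 and Sox10 did not pass the filter. The choroid plexus genes Ttr and Otx2 had a mean of 10.07 and 8.72 there and at most 7.19 elsewhere. Of the other 16 arrays, the LPS arrays of year-2010 were the highest in neuron markers (8.82 and 8.89) and progenitor markers (9.35 and 8.92). Over groups, the microglia mean ran from 12.27 to 13.16 in LPS, 10.93 to 13.19 in PBS, 13.16 to 13.43 in DAP12KO and 13.06 to 13.35 in UT. The neuron mean ran from 6.73 to 8.89 in LPS, 6.97 to 10.49 in PBS, 6.11 to 6.81 in DAP12KO and 5.73 to 7.44 in UT. The progenitor mean ran from 7.04 to 9.35 in LPS, 7.90 to 11.20 in PBS, 7.15 to 8.14 in DAP12KO and 6.80 to 8.22 in UT. Tyrobp, the gene deleted in DAP12KO, read 13.75 to 14.23 in DAP12KO against 14.29 to 14.55 in UT, a difference of -0.60 ± 0.13 (SE; limma adjusted p = 0.301), so its probe set stayed bright; the sources used here do not say whether it lies in the deleted part.

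The median of the 42 genes' deviations from their own 18-array means was 0.09 and -0.09 on the PBS arrays of year-2010, inside the range of the other 16 arrays. That range ran from -0.44 (PBS, year-2008) to 0.45 (DAP12KO replicate 2, where 36 of 42 genes were above their own mean). In bulk RNA, fewer cycling cells and less replication RNA per cell cannot be told apart.

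**Figure D1:**
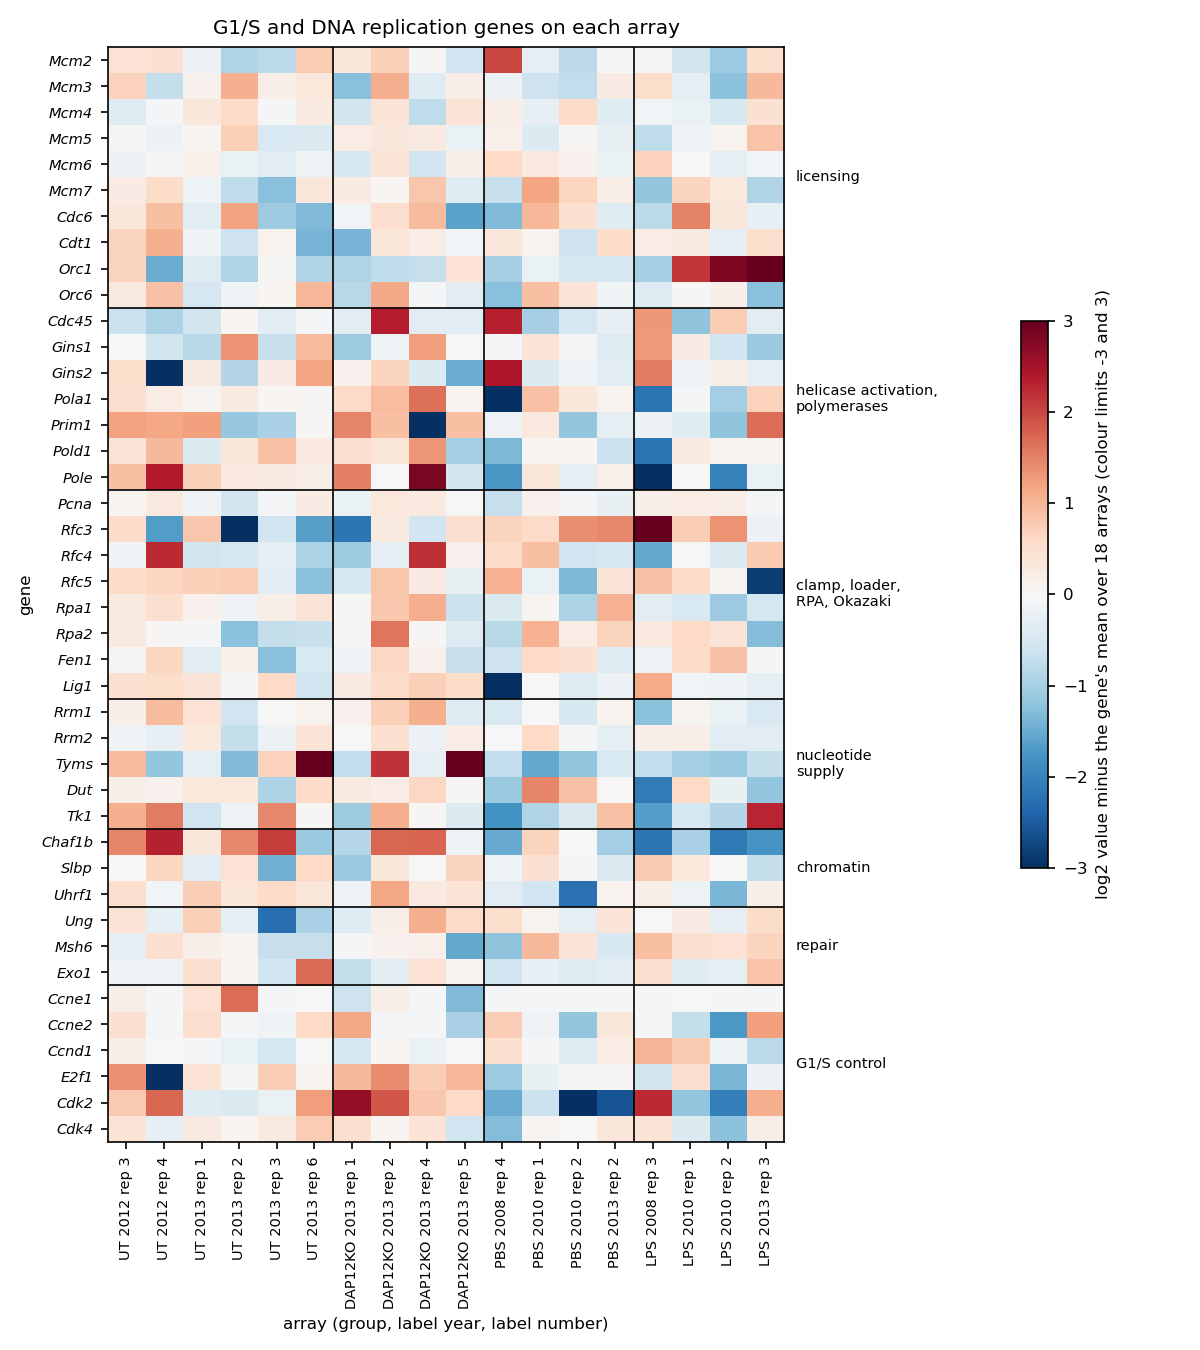
Each square is one gene (rows, grouped by role) on one array (columns, by group and label year), coloured by its log2 value minus that gene's mean over 18 arrays, from -3 (blue) to 3 (red). Single squares stand out more than whole groups of arrays: Orc1 was high on 3 of 4 LPS arrays, and DAP12KO replicate 2 was above the mean for 36 of 42 genes.

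**Figure D2:**
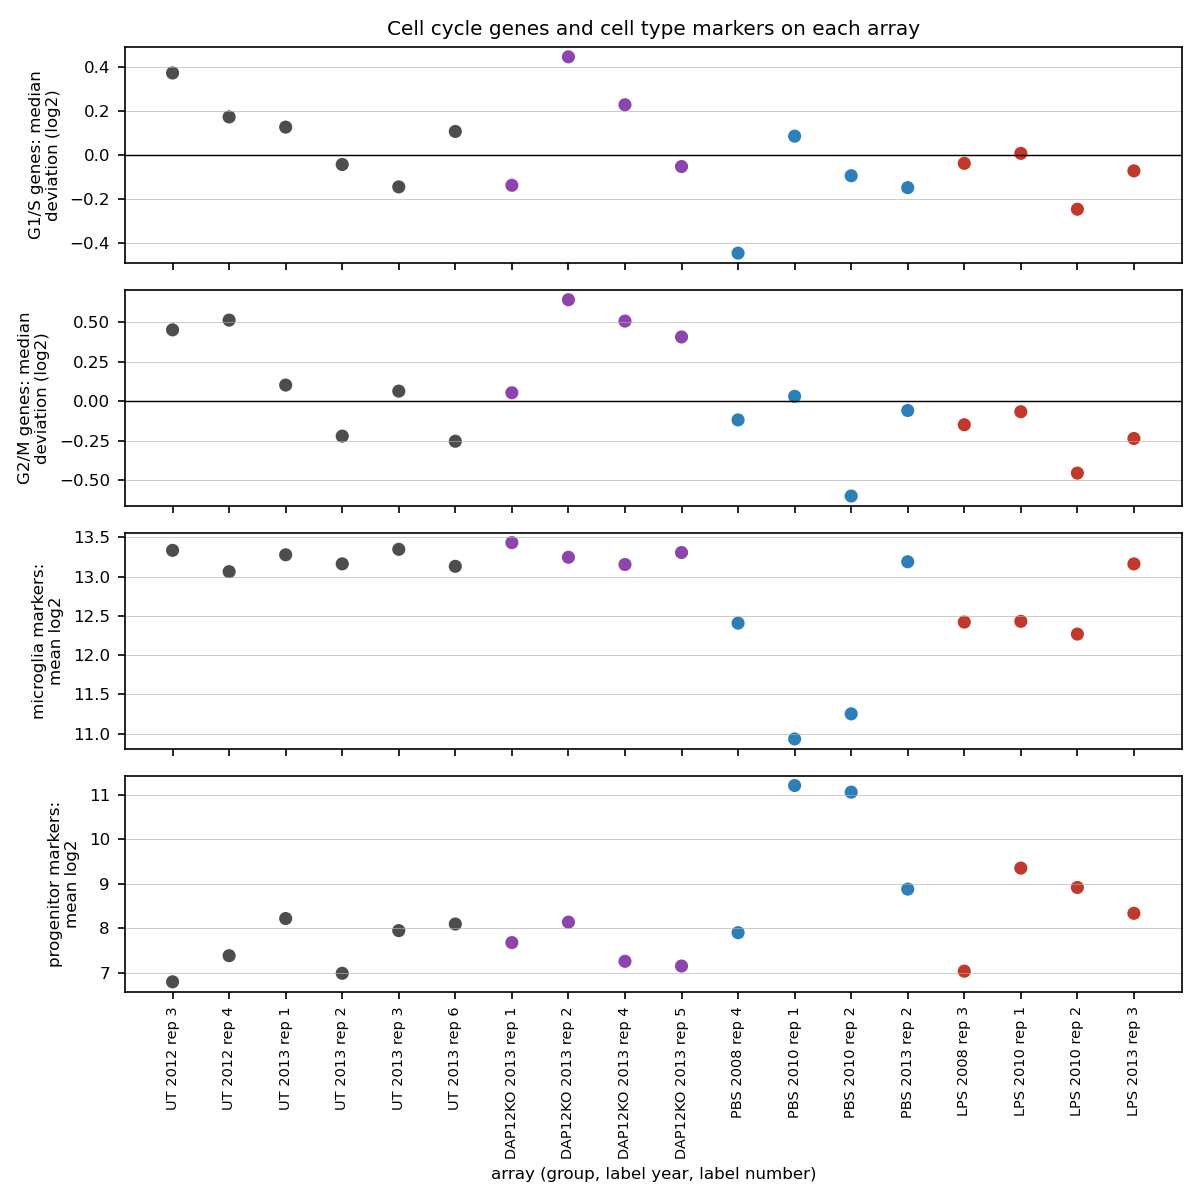
The upper panels give, for each array, the median deviation (log2) of the 42 G1/S and replication genes and of 29 G2 and mitosis genes from their own means; the lower panels give the mean log2 value of 18 microglia and 14 progenitor markers. The PBS arrays of year-2010 were the lowest in microglia markers (10.93 and 11.25) and the highest in progenitor markers (11.20 and 11.06), while their G1/S medians were 0.09 and -0.09.

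The first comparison asked whether maternal inflammation altered these transcripts in fetal microglia. No member passed the threshold (limma, Benjamini-Hochberg adjusted p under 0.05 over 11630 genes), where 11 genes passed in all (0.0946%), 1 higher (0.0086%) and 10 lower (0.086%). At an unadjusted p under 0.05 stood 3 members, or 7.14% against 12.4% of all genes: Orc1 and Cdk2 were higher with LPS (3.47% of genes) and Dut lower (8.98%). Differences are given with their standard error (±) throughout. The fitted difference was above 0 for 20 members and below 0 for 22, with a median of -0.02 against -0.12 over all genes; centring each array on its median, which moved the all-gene median to 0.15, gave 31 above 0, and quantile normalization gave 30. No member's LPS and PBS arrays were free of overlap, against 0.602% of genes higher and 1.36% lower. The 95% interval lay within 1 log2 unit of 0 for 11 members (26.2%, against 14.0% of all genes): Ccnd1, Cdk4, Cdt1, Fen1, Mcm4, Mcm5, Mcm6, Pcna, Pold1, Rrm1 and Rrm2. In the same fit all 18 microglia markers were above 0 and 17 of 18 neuron and 13 of 14 progenitor markers below 0, and their part in the members' values was not tested; without the PBS arrays of year-2010, 24 members were above 0 (median 0.08) and 0 passed.

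Within label years, 5 members were higher with LPS in each of the 3 (Cdc6, Cdk2, Fen1, Pcna and Uhrf1; 11.9% of members, against 8.23% of genes). Another 4 were lower in each (Chaf1b, Dut, Mcm7 and Pole; 9.52%, against 15.7% of genes).

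The second comparison asked the same of loss of DAP12. No member and no gene passed (0.0% of 11630), and 637 genes (5.48%) had an unadjusted p under 0.05, 2.98% higher and 2.5% lower, among them 1 member (2.38%), Ung, which was higher. The fitted difference was above 0 for 29 of 42 members, with a median of 0.18, against 51.6% of all genes and a median of 0.02; 26 were above 0 with centred and 26 with quantile normalized arrays. That median was 0.05, with 24 above 0, without DAP12KO replicate 2, and 0.02, with 23 above 0, without a term for label year, which lets the UT arrays of year-2012 in. Within year-2013, no member's DAP12KO and UT arrays were free of overlap (1.2% of genes higher, 1.18% lower). In the same fit 11 of 18 microglia, 3 of 18 neuron and 6 of 14 progenitor markers were above 0, and their part in the members' values was not tested. The interval lay within 1 log2 unit of 0 for 9 members (21.4%, against 16.6% of genes), which were Ccnd1, Dut, Mcm5, Mcm6, Pcna, Pold1, Rpa1, Rrm2 and Uhrf1.

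**Figure D3:**
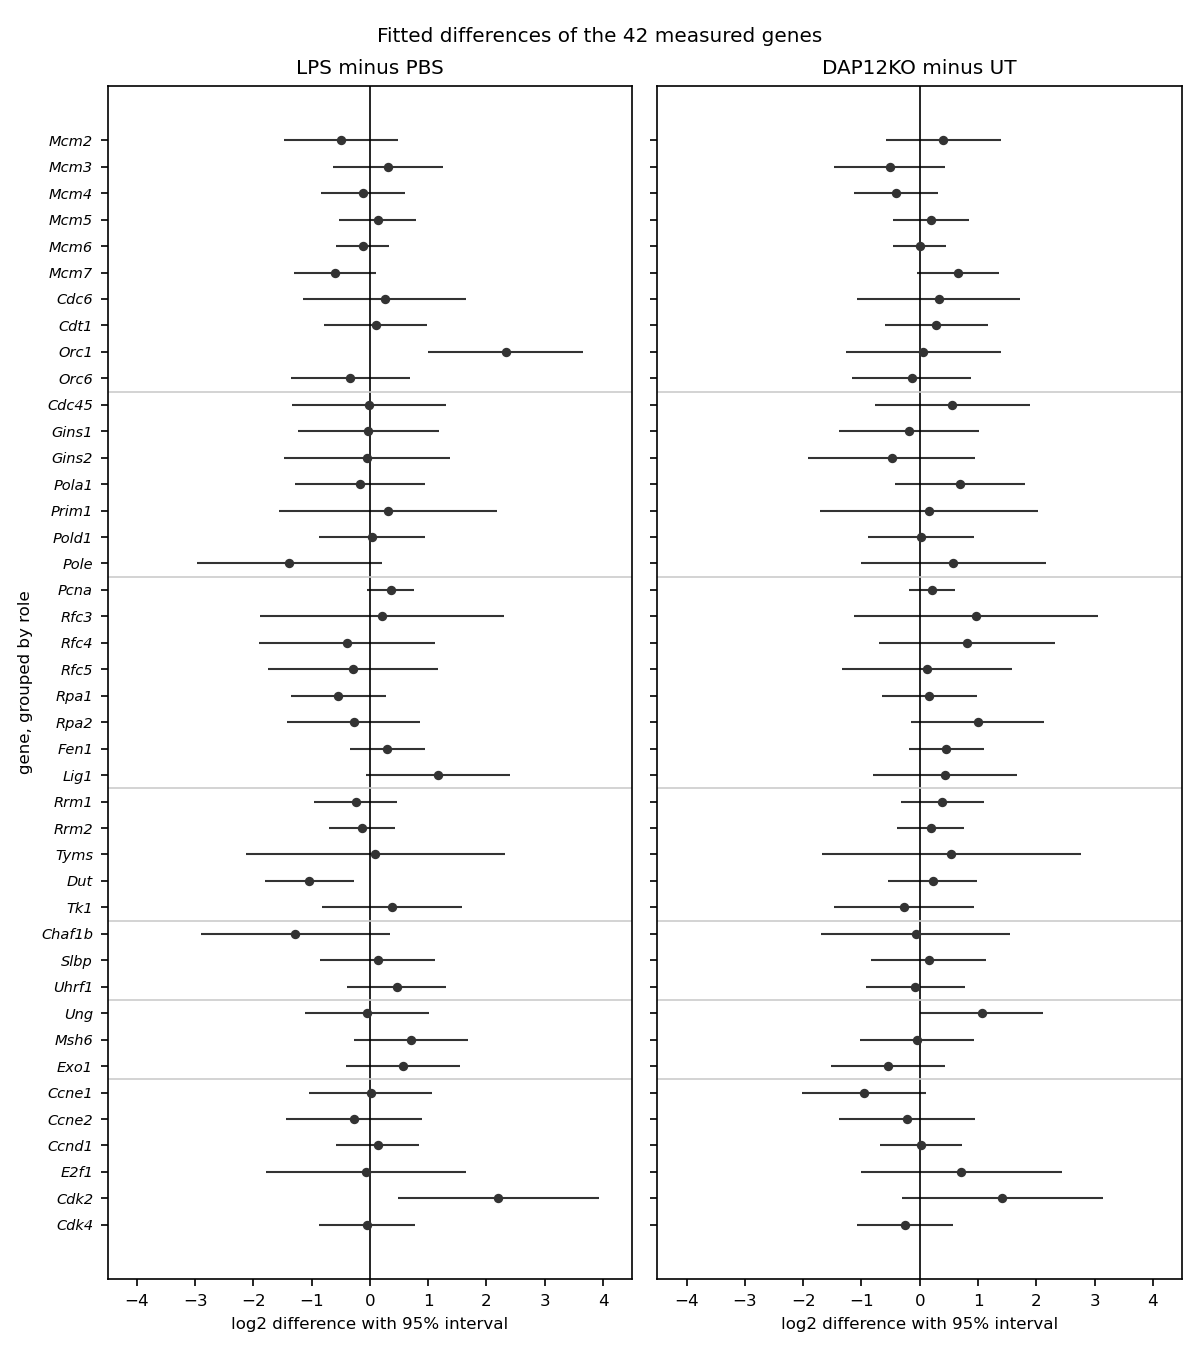
Points are fitted log2 differences of the 42 genes, LPS minus PBS on the left and DAP12KO minus UT on the right, with 95% intervals from limma; genes are ordered by role and grey lines part the roles. The interval excludes 0 without adjustment for Orc1, Cdk2 and Dut on the left and for Ung, barely, on the right, and no gene passed after adjustment.

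Among the licensing genes, Orc1, the largest subunit of the origin recognition complex, had the lowest p of all members. It read 3.65, 6.78, 7.43 and 7.79 in LPS, and 3.65, 4.43, 4.13 and 4.11 in PBS. Thus 3 of 4 LPS arrays were above every PBS array, while the year-2008 arrays of both groups held the same value, 3.64953375, to the last digit. DAP12KO replicate 1 and UT replicate 2 of year-2013 likewise shared 3.74089885. The year-2008 difference of 0.0 therefore rests on a repeated value, whose origin was not tested. Both year-2008 arrays were dim, so the LPS array of that year did not read above PBS as the other 3 LPS arrays did. The LPS difference was 2.33 ± 0.63 (95% interval 1.003 to 3.66; limma adjusted p = 0.169), and within year-2008, year-2010 and year-2013 it was 0.0, 2.83 and 3.67. Orc1 passed without either year-2008 array (3.11, limma adjusted p = 0.0332 without the LPS one and 0.0333 without the PBS one). With label year in the fit, leaving out either takes both out of the difference, so these are not separate passes. With array weights Orc1 also passed (2.79, limma adjusted p = 0.00623). Those weights were estimated from the residual spread of these same arrays. Both year-2008 arrays had the lowest weight, 0.27, so this is not separate from the passes without them. Over the 21 alternatives for Orc1 the adjusted p ran from 0.00623 to 0.58. In the untreated groups Orc1 was dim, at 3.74, 3.89, 3.95 and 5.08 in DAP12KO and 3.14 to 5.31 (median 3.999) in UT. Its other probe set was at the lowest value of the table, 2.19, on 17 of 18 arrays.

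Mcm7, a subunit of the ring, was lower with LPS in each label year, and its mean was higher in DAP12KO than in the UT arrays of year-2013. Its LPS arrays read 10.56, 12.38, 12.04 and 10.83, against 11.03, 12.92, 12.36 and 11.91 in PBS. The LPS difference was -0.60 ± 0.33 (95% interval -1.31 to 0.10; limma adjusted p = 0.464), and the groups overlapped. DAP12KO arrays read 12.001, 11.79, 12.55 and 11.36, with UT at 10.47 to 12.28 (median 11.77), a difference of 0.66 ± 0.33 (95% interval -0.04 to 1.36, limma adjusted p = 0.908). The UT arrays of year-2012 read 11.98 and 12.28, against a DAP12KO mean of 11.92 and a mean of 11.26 in the UT arrays of year-2013. Over the alternatives tried the LPS difference ran from -0.78 to -0.34 and the DAP12KO difference from 0.37 to 0.92. All 4 Mcm7 probe sets had the same signs: -0.60, -0.57, -0.48 and -1.31 with LPS, and 0.66, 0.23, 0.90 and 1.52 in DAP12KO, where the last 2 had an unadjusted p of 0.0396 and 0.0278 and an adjusted p of 0.894 and 0.873. Probe sets of a gene are read on the same arrays and are not replicates.

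Mcm6, which forms the ring with Mcm7, had among the narrowest intervals. It read 13.67, 12.97, 12.71 and 12.90 in LPS and 13.57, 13.27, 13.11 and 12.77 in PBS, a difference of -0.12 ± 0.21 (95% interval -0.58 to 0.34). In DAP12KO it read 12.48, 13.36, 12.39 and 13.16, against 12.64 to 13.14 (median 12.81) in UT, a difference of 0.00292 ± 0.21 (95% interval -0.45 to 0.46). Neither interval reached beyond 0.58 log2 units from 0 on this probe set, and a second Mcm6 probe set gave -1.14 in DAP12KO.

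The other ring subunits had no shared direction. Mcm2 read 10.02, 9.50, 8.96 and 10.57 with LPS and 12.06, 9.76, 9.25 and 9.99 in PBS, where the year-2008 array was the highest of all 18, and the difference was -0.50 ± 0.46. Mcm3 read 11.97, 11.13, 10.20 and 12.40 with LPS and 11.26, 10.82, 10.70 and 11.68 in PBS (difference 0.31 ± 0.45). Both had overlapping groups, with within-year differences of either sign. Mcm4 read 10.83, 10.72, 10.45 and 11.39 with LPS and 11.13, 10.67, 11.49 and 10.56 in PBS (difference -0.11 ± 0.34), and Mcm5 11.10, 11.73, 11.97 and 12.71 with LPS and 12.01, 11.45, 11.88 and 11.63 in PBS (difference 0.13 ± 0.31). Mcm5 went from -0.91 within year-2008 to 1.07 within year-2013, and its second probe set gave -2.13 overall and -6.29 within year-2008.

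In DAP12KO, Mcm2 read 10.37, 10.76, 10.08 and 9.46 against UT at 9.14 to 10.82 (median 10.17; difference 0.41 ± 0.46). Mcm3 read 10.18, 12.51, 11.03 and 11.64 against UT at 10.72 to 12.49 (median 11.69; difference -0.52 ± 0.45). Mcm4 read 10.37, 11.32, 10.17 and 11.33 against UT at 10.53 to 11.48 (median 11.04; difference -0.41 ± 0.34; limma adjusted p = 0.926). For Mcm3 and Mcm4, 2 of 4 DAP12KO arrays lay below every UT array of year-2013 and the others did not. Mcm5 read 12.08, 12.19, 12.13 and 11.66 against UT at 11.40 to 12.57 (median 11.78; difference 0.19 ± 0.31). Of the ring's 6 used probe sets, 2 were below 0, 3 were above and that of Mcm6 was at nearly 0.

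Cdc6 and Cdt1, the loaders of the ring, differed little against wide spreads. Cdc6 read 5.69, 8.002, 6.86 and 6.26 with LPS and 5.20, 7.50, 6.97 and 6.15 in PBS, and its difference of 0.25 ± 0.66 came with an interval of -1.15 to 1.65. In both groups it was higher in year-2010 than in year-2008 or year-2013. Its DAP12KO arrays read 6.43, 7.004, 7.46 and 4.89, with UT at 5.20 to 7.71 (median 6.51, difference 0.32 ± 0.66). The UT mean of Cdc6 in year-2013 was 6.12, and the year-2012 arrays read 6.86 and 7.41. Cdt1 read 10.70, 10.75, 10.24 and 11.02 with LPS and 10.82, 10.59, 9.87 and 11.02 in PBS (difference 0.10 ± 0.42; interval -0.78 to 0.98). Its DAP12KO arrays read 9.08, 10.85, 10.70 and 10.40, where replicate 1 was lowest, against UT at 9.07 to 11.55 (median 10.49, difference 0.28 ± 0.42). The UT arrays of year-2013, which set that difference, ran from 9.07 to 10.60 (mean 9.97). Those of year-2012 read 11.15 and 11.55, and the DAP12KO mean was 10.26. Orc6, a smaller subunit of the origin complex, differed by -0.34 ± 0.48 with LPS and -0.14 ± 0.48 in DAP12KO.

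**Figure D4:**
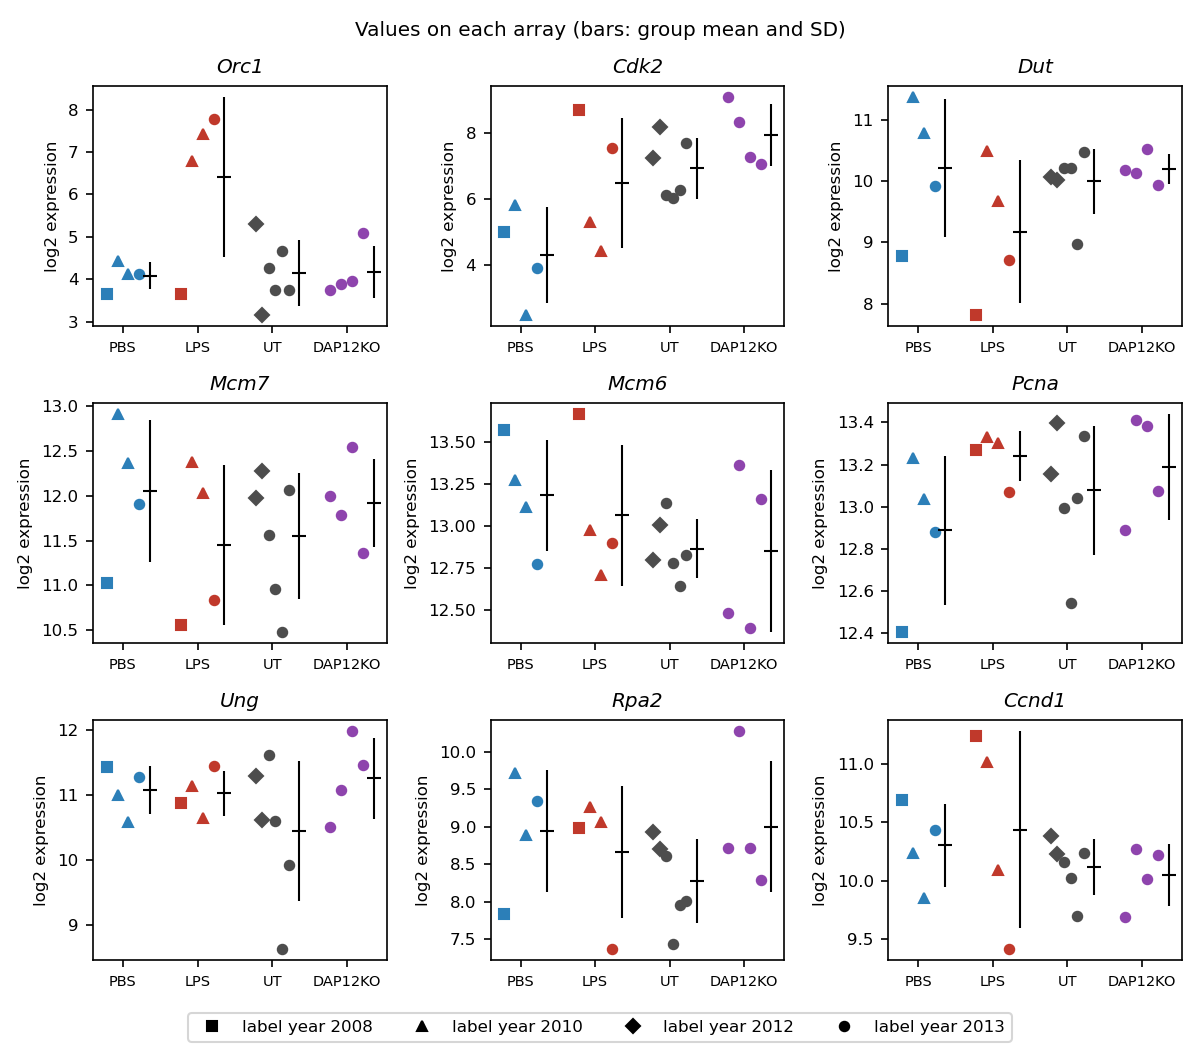
Log2 values of 9 genes on every array, by group (colour) and label year (symbol), with each group's mean and SD as a bar to the right. Orc1 is high on 3 of 4 LPS arrays, Dut is lower in LPS than in PBS within each label year, and every gene shown has arrays of compared groups that overlap.

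Among the helicase activators and polymerases, 2 of 7 members were above 0 with LPS (median -0.03) and 5 of 7 in DAP12KO (median 0.16). Pole, the catalytic subunit of the leading strand polymerase, was lower with LPS in each year. It read 2.19, 7.05, 5.01 and 6.84 in LPS, against 5.28, 7.40, 6.76 and 7.20 in PBS; the year-2008 LPS value is the floor of the table. The difference was -1.38 ± 0.75 (95% interval -2.97 to 0.20; limma adjusted p = 0.454), and in DAP12KO 0.57 ± 0.75, with 8.54, 7.04, 9.87 and 6.48 against UT at 7.23 to 9.42 (median 7.54). Pola1, the catalytic subunit of the primer polymerase, was at the floor on the year-2008 PBS array and differed by -0.17 ± 0.52 with LPS. Its DAP12KO arrays read 5.96, 6.31, 7.04 and 5.46, 3 of them above every UT array, whose values ran from 5.41 to 5.90 (median 5.54), and the difference was 0.69 ± 0.52 (95% interval -0.42 to 1.81; limma adjusted p = 0.922). Pold1, of the lagging strand polymerase, differed by 0.03 ± 0.43 and 0.02 ± 0.43.

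For Gins2, of the GINS complex, the DAP12KO arrays read 10.10, 10.64, 9.57 and 8.48 and UT ran from 6.80 to 11.15 (median 10.24, difference -0.48 ± 0.67). In year-2013, UT ran from 9.09 to 11.15 (mean 10.18), and the year-2012 arrays read 6.80 and 10.49. Cdc45, the helicase cofactor, was dim except on a few arrays: 6.64 and 5.60 on the year-2008 PBS and LPS arrays and 6.66 on DAP12KO replicate 2, while all others lay at or below 5.08. Its differences were -0.02 ± 0.62 and 0.56 ± 0.62. Gins1 and Prim1, the primase, had differences of -0.03 ± 0.57 and 0.31 ± 0.88 with LPS and -0.19 ± 0.57 and 0.16 ± 0.88 in DAP12KO.

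The clamp, its loader, the single-strand binding proteins and the joining enzymes are the role in which every member was above 0 in DAP12KO. The count was 8 of 8, against 51.6% of all genes, with a median difference of 0.45. With centred and with quantile normalized arrays it was also 8 of 8. It stayed 8 of 8 in 16 of 23 alternatives. Among those 16 are alternatives that cannot move a fitted difference, so their result was fixed in advance. They are other filters, no intensity trend, and leaving out LPS, PBS or year-2012 UT arrays. The count was 7 of 8 in the other 7 alternatives, and none passed. The member below 0 was Rfc5 without DAP12KO replicate 2, without UT replicate 6 of year-2013, without the term for label year and with a fixed replicate block (-0.86). It was Rpa1 without DAP12KO replicate 4, Rfc3 without UT replicate 2 of year-2013 and Rpa2 with the mean of a gene's probe sets. The role's median deviation from its genes' own means was 0.17 in DAP12KO. In UT it was -0.30 in year-2013 but 0.36 in year-2012. With LPS 4 of 8 were above 0 (4 with centred and 5 with quantile normalized arrays), and the median of -0.04 became 0.23 and 0.20 under those scalings. Pcna, the sliding clamp, read 13.27, 13.33, 13.30 and 13.07 in LPS and 12.40, 13.23, 13.04 and 12.88 in PBS, so that 3 of 4 LPS arrays were above every PBS array. Its difference was 0.35 ± 0.19 (95% interval -0.05 to 0.76; limma adjusted p = 0.453), with 0.86 within year-2008 and 0.18 and 0.19 within year-2010 and year-2013. DAP12KO arrays read 12.89, 13.41, 13.38 and 13.07, against UT at 12.55 to 13.40 (median 13.10), a difference of 0.21 ± 0.19 (95% interval -0.19 to 0.61).

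Rpa2, of the single-strand binding trimer, read 8.72, 10.28, 8.72 and 8.30 in DAP12KO, against UT at 7.44 to 8.93 (median 8.31). The difference was 0.99 ± 0.54 (95% interval -0.15 to 2.13; limma adjusted p = 0.908), and 3 DAP12KO arrays were above every UT array of year-2013. A second Rpa2 probe set gave -1.32. With LPS, Rpa2 differed by -0.28 ± 0.54, and its partner Rpa1, at 11.01, 10.89, 10.26 and 10.83 in LPS and 10.91, 11.44, 10.40 and 12.39 in PBS, by -0.54 ± 0.38 (limma adjusted p = 0.588).

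Lig1, which seals Okazaki fragments, shows how 1 array can set a value. It read 11.16, 9.98, 9.94 and 9.78 in LPS and 6.61, 10.04, 9.67 and 9.88 in PBS. Its LPS difference of 1.16 ± 0.58 (limma adjusted p = 0.428) was 4.55 within year-2008 and 0.10 and -0.11 within year-2010 and year-2013, and without either year-2008 array it was 0.03. Fen1, which trims the flaps of those fragments, differed by 0.30 ± 0.30 with LPS; in DAP12KO it read 11.90, 12.63, 12.14 and 11.34, against UT at 10.75 to 12.65 (median 11.87; difference 0.46 ± 0.30; limma adjusted p = 0.908). The clamp loader subunits Rfc3, Rfc4 and Rfc5 had standard errors of 0.69 to 0.98, with LPS differences of 0.21, -0.40 and -0.29 and DAP12KO differences of 0.97, 0.81 and 0.13.

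In nucleotide supply, Dut, which removes dUTP before polymerases can use it, was lower with LPS by nearly the same amount in each label year. It read 7.81, 10.50, 9.68 and 8.71 in LPS and 8.78, 11.37, 10.79 and 9.91 in PBS, with 2 LPS arrays below every PBS array. Within years the differences were -0.97, -0.99 and -1.20, and the fitted one was -1.04 ± 0.36 (95% interval -1.80 to -0.28; limma adjusted p = 0.262, 0.109 to 1.0 over 22 alternatives). In UT it ran from 8.97 to 10.48 (median 10.14) and in DAP12KO it read 10.18, 10.13, 10.52 and 9.93 (difference 0.22 ± 0.36). A second, dim Dut probe set with a mean of 2.95 gave 1.04 with LPS, with 4.04 within year-2008.

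Rrm2, the S phase subunit of ribonucleotide reductase, read 12.28, 12.29, 11.75 and 11.76 with LPS and 12.09, 12.68, 12.02 and 11.81 in PBS. The difference of -0.13 ± 0.27 (95% interval -0.70 to 0.44) and that of 0.19 ± 0.27 in DAP12KO were both small against the spread. DAP12KO values were 12.11, 12.59, 11.92 and 12.31, against UT at 11.36 to 12.51 (median 11.93). Rrm1, its partner, differed by -0.25 ± 0.34 and 0.39 ± 0.34. Tyms, the thymidylate synthase, was dim on every LPS and PBS array (3.13 to 4.21) and bright on some others: 3.94, 6.83, 4.42 and 8.43 in DAP12KO and 3.35 to 8.37 (median 4.87) in UT. High arrays occurred in both of those groups, and the DAP12KO difference was 0.54 ± 1.04, with 0.09 ± 1.04 for LPS. Tk1, the thymidine salvage kinase, differed by 0.38 ± 0.56 and -0.27 ± 0.56.

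Among chromatin genes, Chaf1b, of the histone chaperone that follows the fork, was lower with LPS in each label year. It read 4.17, 5.37, 4.204 and 4.57 in LPS and 4.82, 6.998, 6.32 and 5.30 in PBS, with 3 of 4 LPS arrays below every PBS array. The difference was -1.28 ± 0.76 (95% interval -2.90 to 0.34; limma adjusted p = 0.513), and -0.07 ± 0.76 in DAP12KO. Uhrf1, which brings the maintenance methyltransferase to new DNA, read 10.58, 10.24, 9.01 and 10.56 with LPS and 10.07, 9.82, 8.16 and 10.50 in PBS (difference 0.46 ± 0.40). DAP12KO values of Uhrf1 were 10.24, 11.56, 10.68 and 10.81, with UT at 10.32 to 11.12 (median 10.83; difference -0.08 ± 0.40). Slbp, which binds histone mRNA, differed by 0.13 ± 0.47 and 0.16 ± 0.47.

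Of the repair genes, Ung, the glycosylase that removes uracil from DNA, had the lowest p among members in DAP12KO. It read 10.50, 11.07, 11.98 and 11.46, against 11.62, 10.60, 8.63 and 9.92 in the year-2013 arrays and 11.30 and 10.62 in the year-2012 arrays in UT. In year-2013, 2 UT arrays (8.63 and 9.92) were below every DAP12KO array, while UT replicate 1, at 11.62, was above 3 of the 4, so the groups overlapped. The difference was 1.06 ± 0.50 (95% interval 0.00 to 2.12; unadjusted p = 0.0499, limma adjusted p = 0.902), with -0.05 ± 0.50 for LPS. Msh6, a mismatch sensor, read 11.48, 11.03, 10.997 and 11.24 with LPS and 9.34, 11.54, 10.94 and 10.09 in PBS (difference 0.71 ± 0.46; limma adjusted p = 0.547), a difference of 2.13 within year-2008, -0.22 within year-2010 and 1.14 within year-2013. Exo1, a repair exonuclease, was dim throughout (2.42 to 4.84) and differed by 0.56 ± 0.46 with LPS. DAP12KO values of Exo1 were 2.42, 2.82, 3.57 and 3.21, with UT at 2.52 to 4.84 (median 3.11; difference -0.54 ± 0.46; limma adjusted p = 0.926).

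Of the G1/S regulators, Cdk2, the kinase of cyclin E, was the second member with an unadjusted p under 0.05 in the upward direction for LPS. It read 8.71, 5.29, 4.43 and 7.57 in LPS and 4.997, 5.83, 2.45 and 3.89 in PBS, so 2 LPS arrays were above every PBS array. The difference was 2.21 ± 0.81 (95% interval 0.48 to 3.93; limma adjusted p = 0.281, 0.162 to 0.681 over 22 alternatives), with 3.71, 0.72 and 3.68 within label years. In DAP12KO it read 9.11, 8.35, 7.29 and 7.07, with 2 arrays above every UT array; UT ran from 6.04 to 8.21 (median 6.77), and the difference was 1.42 ± 0.81 (95% interval -0.31 to 3.14; limma adjusted p = 0.908).

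Cyclins and Cdk4 gave smaller differences. Ccnd1, cyclin D1, read 11.23, 11.01, 10.09 and 9.41 with LPS and 10.69, 10.24, 9.85 and 10.43 in PBS: it was higher with LPS by 0.54 and 0.51 within year-2008 and year-2010 and lower by a difference of -1.02 within year-2013, for 0.13 ± 0.33 in all. Its DAP12KO arrays read 9.69, 10.27, 10.01 and 10.22 and UT ran from 9.70 to 10.38 (median 10.19; difference 0.02 ± 0.33; interval -0.69 to 0.73). Cdk4, the kinase of cyclin D, read 11.97, 11.16, 10.33 and 11.73 with LPS and 10.26, 11.64, 11.58 and 11.91 in PBS (difference -0.05 ± 0.39). Its DAP12KO arrays read 12.06, 11.62, 11.98 and 10.97, with UT at 11.31 to 12.32 (median 11.84; difference -0.25 ± 0.39).

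Ccne1, cyclin E1, was hard to read from its brighter probe set. That probe set showed 7.28, within 0.05, on 12 of 18 arrays, among them every LPS and PBS array, so its LPS difference of 0.01 is a repeated value and no measurement of likeness. DAP12KO arrays read 6.72, 7.52, 7.28 and 6.02, with UT at 7.28 to 9.02 (median 7.42) and a difference of -0.96 ± 0.50 (limma adjusted p = 0.908), whereas a second probe set gave 0.85 in DAP12KO and -0.02 with LPS. Ccne2, cyclin E2, read 5.37, 4.70, 3.70 and 6.64 with LPS and 6.15, 5.31, 4.26 and 5.76 in PBS (difference -0.27 ± 0.55). DAP12KO values were 6.57, 5.37, 5.37 and 4.45, against UT at 5.30 to 6.02 (median 5.61; difference -0.22 ± 0.55).

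E2f1, an E2F activator of replication genes, read 7.07, 8.12, 6.24 and 7.43 with LPS and 6.52, 7.39, 7.55 and 7.65 in PBS (difference -0.06 ± 0.81; interval -1.78 to 1.66). In DAP12KO it read 8.59, 9.04, 8.35 and 8.60, and 3 of these arrays were above every UT array of year-2013. UT ran from 3.81 to 8.98 (median 7.89), its lowest array being of year-2012, and the difference was 0.72 ± 0.81 (95% interval -1.002 to 2.43).

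The third question was whether a gene answered differently to LPS and to loss of DAP12, which share no array. No member and no gene passed in the difference of the responses, and 943 genes (8.11%) had an unadjusted p under 0.05, 2.32% above 0 and 5.79% below, among them 3 members (7.14%). Orc1 had 2.27 ± 0.88 (95% interval 0.39 to 4.15; limma adjusted p = 0.581), Mcm7 -1.26 ± 0.47 (-2.26 to -0.27; limma adjusted p = 0.574) and Dut -1.26 ± 0.51 (-2.34 to -0.18; limma adjusted p = 0.592). The members' median was -0.10, with 17 of 42 above 0, against -0.17 and 42.3% over all genes, and the interval lay within 1 log2 unit of 0 for 3 members (Mcm5, Mcm6 and Pcna; 5.1% of genes); it was 0.22, with 25 above 0, with centred arrays, 0.02, with 22 above 0, with quantile normalized arrays, and 0.05, with 24 above 0, without DAP12KO replicate 2. The next lowest p below 0 belonged to Pole (difference -1.96 ± 1.06), Rpa2 (difference -1.28 ± 0.76) and Ung (difference -1.11 ± 0.71), and above 0 to Exo1 (difference 1.11 ± 0.65), Ccne1 (difference 0.97 ± 0.71), Mcm3 (difference 0.83 ± 0.63) and Msh6 (difference 0.76 ± 0.65).

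None of the other genes of the pathway passed in either comparison. Of 40 other licensing and fork genes, 18 were above 0 with LPS, against 42.3% of all genes. The list's median was -0.09, with 25 above 0 in centred and 22 in quantile normalized arrays. In DAP12KO 25 of the 40 were above 0 (median 0.29), against 51.6% of all genes. The lowest p with LPS were those of Asf1b, a histone chaperone (difference 1.58 ± 0.65, SE), Rbbp7 (difference -0.43 ± 0.20) and Orc4 (difference -1.36 ± 0.68). In DAP12KO they were those of Mcm10, which helps start the helicase (difference 2.82 ± 0.91, 6.54 to 9.75 against 2.92 to 8.50 in UT, limma adjusted p = 0.787), Timeless, of the fork protection complex (difference 1.32 ± 0.50), and Mcm8 (difference 1.38 ± 0.74). Within year-2008, year-2010 and year-2013 the LPS difference was 4.74, 0.53 and 0.55 for Asf1b. It was -0.997, -0.11 and -0.50 for Rbbp7 and -4.39, -0.29 and -0.45 for Orc4.

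Of 13 other nucleotide supply genes, 5 were above 0 with LPS, against 42.3% of all genes. The list's median was -0.23, and centred arrays gave 7 above 0 and a median of 0.03. In DAP12KO 8 of the 13 were above 0, against 51.6% of all genes. The list's median there was 0.03, and centred arrays gave 6 above 0 and a median of -0.02. The named ones were Umps (difference -1.88 ± 0.65), Shmt1 (difference 1.74 ± 0.74) and Samhd1, a dNTP hydrolase (difference 0.72 ± 0.34), with LPS. In DAP12KO they were Dctd (difference -1.97 ± 0.92), Dctpp1 (difference 0.57 ± 0.28) and Atic (difference 0.59 ± 0.63). The LPS difference of Umps was -4.79, -0.01 and -2.68 within year-2008, year-2010 and year-2013. In the same order it was 4.75, 0.72 and 0.78 for Shmt1 and 0.29, 1.25 and 0.08 for Samhd1.

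Of 28 other G1/S control genes, 11 were above 0 with LPS, against 42.3% of all genes. The list's median was -0.39, and centred arrays gave 13 above 0 and a median of -0.12. In DAP12KO 14 of the 28 were above 0 (median 0.12), against 51.6% of all genes. Fbxw7, which marks cyclin E for destruction, had -2.28 ± 0.93 with LPS, Myb -1.87 ± 0.81 and Ccnd3, cyclin D3, -1.62 ± 0.83. In DAP12KO, Mybl2 had 1.91 ± 0.88, Skp2, which marks the inhibitor Cdkn1b for destruction, 1.27 ± 0.56, and E2f3 -0.78 ± 0.39. The LPS difference of Fbxw7 was -4.70, -0.56 and -3.31 within year-2008, year-2010 and year-2013. In the same order it was -4.53, -0.9997 and -0.94 for Myb and -3.42, -0.89 and -1.26 for Ccnd3.

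Genes of the next cell cycle phases, G2 and mitosis, were mostly above 0 in DAP12KO: 25 of 29, against 51.6% of all genes. Their median was 0.45, against 0.02 over all genes, and 25 of 29 were above 0 with centred and quantile normalized arrays as well. An unadjusted p under 0.05 was reached by 4 of them, or 13.8% against 5.48% of all genes, all higher, and none passed. The count was 24 to 28 when any 1 DAP12KO array was left out. Foxm1, the transcription factor of that phase, had 2.12 ± 0.81 (limma adjusted p = 0.831), Nusap1 0.97 ± 0.41, Racgap1 1.47 ± 0.66, Top2a 0.75 ± 0.38, Cdk1 0.35 ± 0.54 and Mki67, the proliferation marker, 0.29 ± 0.14 (13.77 to 14.17 against 13.48 to 13.91 in UT). With LPS 17 of 29 were above 0, against 42.3% of all genes (21 of 29 with centred arrays). The list's median with LPS was 0.18, against -0.12 over all genes. Aurka, a spindle kinase, had an LPS difference of 1.96 ± 0.60 (limma adjusted p = 0.211). The others were Tpx2 at -0.93 ± 0.47, Ube2c at -0.41 ± 0.22, Mki67 at 0.22 ± 0.14, Top2a at 0.34 ± 0.38 and Cdk1 at -0.45 ± 0.54. Within year-2008, year-2010 and year-2013 the LPS difference was 3.20, 1.32 and 2.002 for Aurka. For Tpx2 it was -3.22, -0.19 and -0.13, and for Ube2c -0.89, -0.08 and -0.58. The whole list's level on each array is in the plot of cell cycle genes and markers: its median deviation ran from 0.05 to 0.64 in DAP12KO and from -0.25 to 0.10 in the UT arrays of year-2013, but from 0.45 to 0.51 in the UT arrays of year-2012.

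The probe sets of one gene often disagreed. The 42 genes had 91 probe sets, of which 82 passed the filter, and 28 genes had another kept probe set beside the one used (40 in all). These 40 had the same sign as the used one in 23 cases for LPS and 21 for DAP12KO, and the median absolute gap was 0.35 and 0.71 log2 units. None of the 82 passed in either comparison. The farthest pairs were those of Mcm5 and Dut with LPS (-2.13 against 0.13, and 1.04 against -1.04) and of Rpa2 and Rfc4 in DAP12KO (-1.32 against 0.99, and 2.63 against 0.81). The 4 probe sets of Mcm7 had 1 sign in each comparison.

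**Figure D5:**
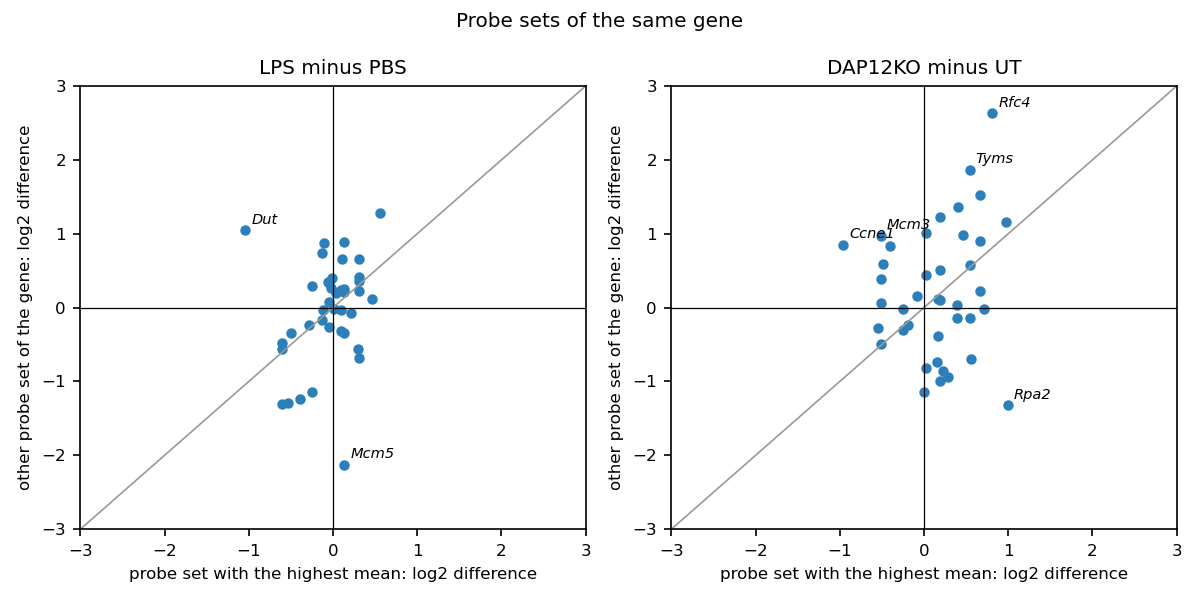
Each point is another kept probe set of a member gene (40 points in each panel): the horizontal axis gives the fitted log2 difference of the gene's used probe set, the vertical axis that of the other, and the diagonal marks equality. Points in the upper right and lower left of a panel have the same sign, 23 of 40 for LPS and 21 of 40 for DAP12KO; genes over 1.3 log2 units from the diagonal are named.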

How the data were processed

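RNA of sorted microglia was amplified (NuGEN Ovation Pico WTA v2, per the labels) and read on 18 arrays. The authors deposited log2 values, and the submitters' processing notes name RMA; the version or variant, and whether the arrays went through it as one set, are not given in the sources used. Of 45101 probe sets, 34958 carried 1 gene symbol in the platform annotation, 932 several and 9211 none. The lowest deposited log2 value, 2.19, was the same on all arrays and filled 35.3% to 39.1% of probe sets on each, so dim genes have a floor. The number of arrays limits the precision.

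From the deposited log2 values, probe sets with a mean at or above the 40th percentile (log2 2.49) were kept, and the brightest stood for each gene (11630 genes). limma 3.58.1 in R 4.3.3 (lmFit, then eBayes with an intensity trend) fitted one mean per group and an additive label year on all 18 arrays, with 11 residual degrees of freedom. Two-sided p-values were adjusted over 11630 genes (Benjamini-Hochberg), with a threshold of 0.05 and 95% intervals; errors of differences are standard errors. With label year in the fit, the UT arrays of year-2013 set the DAP12KO comparison. Tables were made with Python 3.11.15 (pandas 2.3.3), figures with matplotlib 3.10.9.

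The fit was tested on simulated data with 100 of 11630 genes changed at each size: for LPS it recovered 28% at 1.5 and 68% at 3 log2 units, and for DAP12KO 10% and 67%. With both sizes in one simulation, 7 unchanged genes were called beside 96 changed ones for LPS, and 2 beside 77 for DAP12KO. Alternatives changed the filter, scaling, probe set, floor, year term, variance prior, array weights, replicate block and samples. The members and all lists were chosen with earlier results of these data known. Described in full are the ring subunits, their loaders, the main S phase enzymes, cyclins and kinases of the list and the 5 members of lowest p in each direction of each comparison; of other lists, the 3 of lowest p, with Mki67, Top2a and Cdk1.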

Additional observations from a re-analysis of the deposited data

Results flagged for a closer look

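Within each group, the highest or lowest array of a member was set against the other arrays of that group by Dixon's criterion. Of 168 sets of values, 16 (9.52%) had an array that stood apart, where chance gives about 1 in 20.

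The label year year-2008 arrays gave 4 of them. Lig1 was 11.16 on the year-2008 LPS array (9.78 to 9.98 on the other LPS arrays) and 6.61 on the year-2008 PBS array (9.67 to 10.04 on the others). Pold1 was 8.74 on that LPS array (11.04 to 11.20 on the others), and Gins2 was 12.40 on that PBS array (9.57 to 9.85 on the others). In the LPS array of year-2013, Rpa2 was 7.37, below 8.98 to 9.27 on the others.

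In DAP12KO, Orc1 was 5.08 on replicate 5 (3.74 to 3.95 on the others) and Msh6 was 9.02 on the same array (10.51 to 10.71 on the others). Cdc45 was 6.66 on replicate 2 (3.982 to 3.995 on the others), and Prim1 was 6.82 on replicate 4 (11.15 to 11.72 on the others).

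In UT, replicate 4 of year-2012 held 3: Pole at 9.42 (7.23 to 7.94 on the others), Rfc4 at 11.30 (8.12 to 8.94) and E2f1 at 3.81 (7.58 to 8.98). Dut was 8.97 on UT replicate 3 of year-2013 (10.02 to 10.48 on the others), and Ccne1 was 9.02 on UT replicate 2 of year-2013 (7.28 to 7.76). In LPS and PBS, Ccne1 was 7.32 and 7.28 on the first year-2010 arrays, where all other arrays of those groups held the same repeated value, 7.28.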

How the results depend on the processing

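No member passed in any alternative except Orc1 with LPS, and of 42 members 14 kept 1 sign in every alternative for LPS, 12 for DAP12KO and 17 for the difference of the responses. Genes past the threshold with LPS, 11 as fitted, were 1 with no filter, 0 with the 60th percentile filter, 0 with no label year term, 3 with no intensity trend, 826 with array weights (members passed: 1, Orc1), 6 with the mean of a gene's probe sets, 6 with every probe set on its own, 0 with arrays centred on their median, 3 with quantile normalization, 3 with values near the floor set to the threshold, 0 with only the compared groups and 5 without all arrays of year-2010. With centred arrays 31 members were above 0, with a median of 0.24, and with quantile normalization the median was 0.22. For the difference of the responses, genes past the threshold, 0 as fitted, were 1 with no filter, 1 with no intensity trend, 11 with array weights, 1 with the mean of probe sets and 1 with every probe set; the members' median was 0.22 with centred arrays. Leaving out 1 array at a time gave 0 to 120 genes for LPS (119 and 120 without the LPS or PBS array of year-2013, 79 and 77 without that of year-2008, 0 without any one of year-2010) and 0 to 1 members, 0 to 6 genes for DAP12KO (2 and 6 without DAP12KO replicates 4 and 5, 4 and 2 without UT replicates 1 and 6 of year-2013), and 0 to 18 genes for the difference (18 without an array of year-2013 LPS or PBS, 9 without one of year-2008, 1 without DAP12KO replicate 4). Same-numbered arrays of a label year had deviations that correlated at 0.53 (LPS and PBS, year-2010) and at -0.01 and 0.01 (DAP12KO and UT). The first value leaned towards pairing, but with 2 arrays a group both pairs must give the same value, so it counts once. The labels do not say what a number marks, so the numbers were not taken as pairs in either comparison. A random replicate block gave 13 genes for LPS and 0 for DAP12KO, with 0 members. A fixed replicate block, with 3 residual degrees of freedom, gave 0 genes for LPS and a members' median of -0.38 for the difference of the responses. The cause of these shifts was not tested. With 4 arrays a group, the median standard error of a member's LPS difference was 0.49 log2 units. In the simulation, 28% of LPS changes of 1.5 log2 units were recovered, so most changes of that size were missed there. Its noise was normal and independent for each gene and array, with no floor and no repeated values. The share that would be detected on the real arrays may therefore differ.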

Other observations

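Some markers of other cells were not described above. Of the 7 kept border macrophage and blood myeloid genes, 0 were above 0 with LPS (median -0.63) and 2 in DAP12KO (median -0.58), and none passed; their mean ran from 7.52 to 9.55 (log2) in LPS, 8.88 to 9.73 in PBS, 6.71 to 7.55 in DAP12KO and 6.76 to 9.29 in UT. Of 6 endothelial and mural genes, 0 were above 0 with LPS (median -0.95), and their mean ran from 2.79 to 4.48 in LPS and from 3.64 to 5.93 in PBS. The erythroid genes Alas2 and Slc4a1 stayed between a mean of 2.26 and 3.66 on all 18 arrays. The part of these cells in the values of the replication genes was not tested.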
